A study of Rattus norvegicus with 44 samples.

Results

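Cortex bordering an infarct was compared with the opposite cortex of the same rats, 24 h after permanent middle cerebral artery occlusion (pMCAO). The arrays were chosen by their labels, namely those of the periinfarct (PI) area and those of the contralateral area taken 24 h after infarct, and were joined by the rat number. This gave 4 PI arrays and 4 contralateral arrays, 8 of the 44 arrays in the series. All rats were adult Sprague-Dawley rats, and the labels give no genotype, sex or exact age. In the infarct groups a branch of the right middle cerebral artery was tied off for good through a small craniotomy, and both common carotid arteries were closed for a while. Flow to the contralateral cortex was therefore lowered during surgery as well, so that side is a reference from the same animals and not untouched cortex. Sham-operated rats had the same surgery but no occlusion and no infarct. Each array carried RNA pooled from 3 rats, so n counts pools. Pool was a fixed effect in the fit, so the p-values measure how differences within a pool vary from pool to pool. That variation was estimated over every pool in the series that gave more than 1 array, sham and 3 d pools included. It is not the spread of pools 1 to 4 alone. The 24 h infarct arrays came from pools 1 to 4 (PI, contralateral and core), the 24 h sham arrays (ipsilateral and contralateral) from pools 5 to 8, and the 3 d infarct arrays from pools 9 to 12.

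The PI area is the rim of tissue around the core of an infarct. It keeps some blood flow, and its cells meet shortage of energy, release of glutamate and waves of depolarization while the core dies. Astrocytes and microglia in this rim change state within a day, vessels become adhesive for leukocytes, and neurons may survive, die or lose synapses.

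Values are log2 signals after quantile normalization of single-colour Agilent arrays, and every difference is PI minus contralateral on that log2 scale unless another pair is named. Each error after ± is the standard error of the limma fit (n = 4 pools per group). A probe was called higher or lower where its Benjamini-Hochberg adjusted p was below 0.05 over 30514 probes and its change was at least 2-fold. A gene is described by its brightest probe, and signals of different probes are not set against each other. The 10 largest changes each way were ranked over all probes, so that Ccl7 and Tril entered by dimmer probes than their brightest, and Tril is described by that probe. Where a probe was not well above background on any array of the dimmer group, the change is given as a lower bound.

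The array labelled PI, 3 d, pool 11 stood apart. It correlated at 0.988 with its own contralateral array over all probes, against 0.937 to 0.958 in the other 3 d pools and 0.931 to 0.961 in the 24 h pools, so counts at 3 d, and most values of single genes, are given with and without it. The contralateral array of pool 4 carried choroid plexus RNA, with a summed signal of 10674 for 3 choroid plexus markers against 37.6 to 46.8 in the other contralateral pools. Neuronal markers were bright on all 8 arrays, but their summed signal was 37824 to 51047 in the PI area and 81300 to 88416 on the contralateral side. The 17 markers of microglia and macrophages summed to 39224 to 43976 against 25486 to 27946, and the 11 astrocyte markers to 30996 to 32558 against 41310 to 44401. Oligodendrocyte markers overlapped between the sides, at 22040 to 37385 against 30036 to 37338. The 7 neutrophil markers summed to 154 to 2080 in the PI area, highest in pool 3, and to 84.5 to 177 on the contralateral side. The part that these shifts in cell type markers had in the results below was not tested. In tissue of mixed cells, fewer cells of a type and less RNA per cell cannot be told apart.

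**Figure D1:**
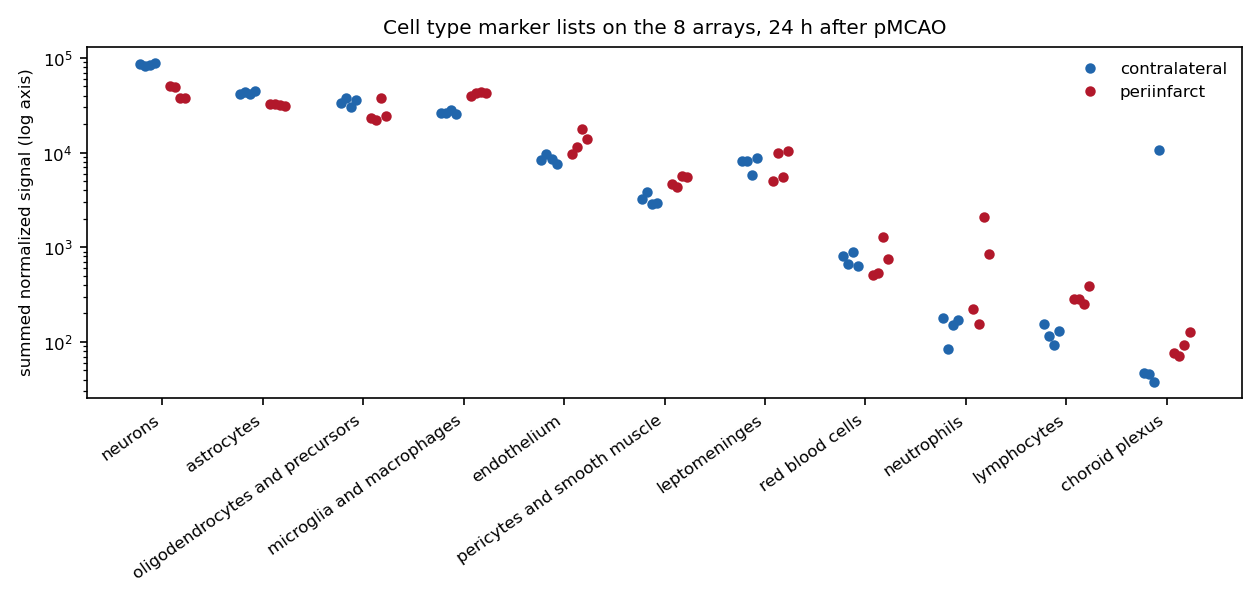
Summed normalized signal (log axis) of 11 cell type marker lists on the 8 arrays, with 1 point per pool, contralateral in blue and PI in red. Neuronal and astrocyte sums were lower in all 4 PI pools than in any contralateral pool, microglial sums were higher, and the lone high choroid plexus point is contralateral pool 4.

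The hemispheres differed widely. Of the 30514 probes tested, 4420 (14.5%) were called, 2428 higher (7.96%) and 1992 lower (6.53%) in the PI area. With 1 probe for each of 12082 gene symbols, 1193 genes (9.87%) were called higher and 716 (5.93%) lower. Increases were the larger changes: 734 probes were at least 4-fold higher and 69 at least 4-fold lower, 217 were at least 8-fold higher and 0 at least 8-fold lower, and 30 were at least 32-fold higher. The 4 PI arrays and the 4 contralateral arrays did not overlap for 3873 of the called probes, against 38.7% of all probes tested, and 4222 of the called probes moved the same way in all 4 pools. The pools differed in the size of the shift. The median change of the probes called higher was 1.33, 1.43, 1.75 and 1.89 in pools 1 to 4, and that of the probes called lower was -0.93, -1.03, -1.42 and -1.63. Without pool 4 the count was 2921.

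The balance of higher and lower calls depended on the scaling. After quantile normalization 54.9% of the called probes were higher and the median of all probes was -0.12, whereas scaling by the 75th percentile of every array gave 3466 higher and 995 lower (77.7% higher) with a median of 0.11. The median change of the genes with 1 probe per symbol was -0.06 in the main fit, and list medians below are to be read against it. List counts below are to be read against the shares over all genes, 9.87% called higher and 5.93% called lower. No slide held both a PI and a contralateral array of 24 h, so no value within a slide could be computed. The PI arrays of pools 1 and 2 shared a slide, while those of pools 3 and 4 lay on other slides. Where PI pools 3 and 4 differ from pools 1 and 2 below, pool and slide cannot be told apart. With the slide as a further block the fit called 678 probes, 561 higher and 117 lower, and with the normexp background correction, which shrinks dim signals, it called 945, 696 higher and 249 lower. Both fits called fewer members in many of the gene lists below, and those counts are given beside a main count of 3 or more that they moved by more than 1.5 times.

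**Figure D2:**
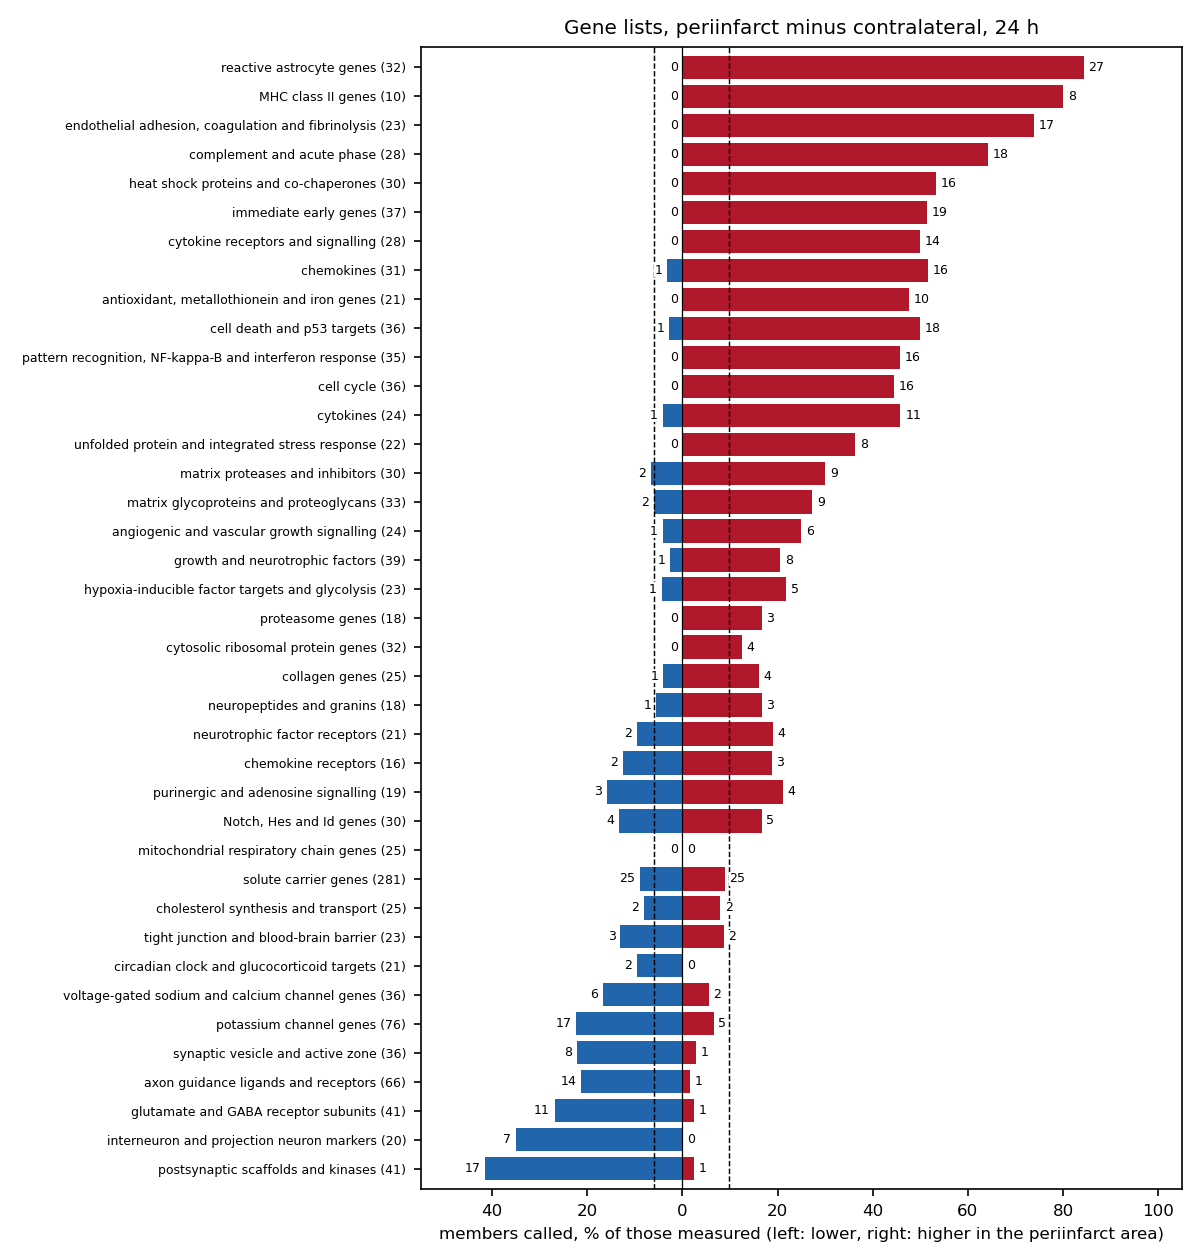
Share of the measured members of each gene list called higher (red, to the right) or lower (blue, to the left) in the PI area at 24 h, in % of the members, with the number called at the end of each bar and the list size in parentheses. Dashed lines mark the shares over all genes, 9.87% higher and 5.93% lower, and reactive astrocyte, MHC class II and endothelial lists lie at the right end while the postsynaptic and neuron class lists lie at the left.

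The 10 largest increases were those of Spp1, Ccl2, Serpina3n, Fosl1, Cxcl1, Ccl7, Hspa1b, Hspa1a, Cxcl2 and Ccl20. Spp1, which encodes the secreted matrix protein osteopontin, had log2 signals of 14.81, 13.60, 14.70 and 15.49 in PI pools 1 to 4 and 6.26, 6.19, 5.72 and 8.15 in the contralateral pools. The lowest PI pool lay far above the highest contralateral pool, and Spp1 was 269-fold higher (8.07 ± 1.06, adjusted p = 1.7e-05). Serpina3n, an acute phase serine protease inhibitor that reactive astrocytes make, had signals of 10.82, 11.03, 11.20 and 12.34 in PI pools 1 to 4 and 3.09, 3.68, 2.03 and 5.45 in the contralateral pools. There was no overlap, although only 2 of the 4 contralateral arrays were well above background, and the fitted change was 7.78 ± 0.88 (221-fold, adjusted p = 3.1e-06). The remaining genes are described with their groups. The ranks of Fosl1, Cxcl2 and Ccl20 are uncertain, since none of their contralateral arrays was well above background.

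Heat shock genes rose in the PI area. They encode chaperones that hold or refold damaged proteins, and heat shock factor 1 switches them on by binding repeats of GAA and its complement TTC in their promoters. Of 30 heat shock proteins and co-chaperones measured, 16 were called higher and 0 lower, where 9.87% of all genes were called higher. Another 10 were positive and 4 negative without a call, and the median change was 1.21. The count stayed within 1.5 times of this under every alternative run. The promoter stretches of 7 members are shown because they hold this sequence motif. They come from the RefSeq promoter table (build GRCr8), 5′ to 3′ on the strand of the gene, and the capitals mark matches to GAANNTTC and to its extended form (the same letters, any 2 bases and GAA) on either strand, which overlap where both occur.
Hspb1, chr12:26432392-26432441, minus strand, bases 140 to 91 before the start: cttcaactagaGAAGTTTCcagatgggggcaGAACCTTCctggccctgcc
Hsph1, chr12:10427308-10427357, plus strand, bases 60 to 11 before the start: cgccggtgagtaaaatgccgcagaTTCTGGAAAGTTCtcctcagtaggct
Hspe1, chr9:64084247-64084296, plus strand, bases 80 to 31 before the start: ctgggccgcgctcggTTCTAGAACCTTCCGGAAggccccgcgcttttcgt
Hspd1, chr9:64084258-64084287, minus strand, bases 250 to 221 before the start: gcggggccTTCCGGAAGGTTCTAGAAccga
Serpinh1, chr1:163062987-163063036, minus strand, bases 60 to 11 before the start: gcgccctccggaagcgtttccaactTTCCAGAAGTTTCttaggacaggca
Bag3, chr1:192533310-192533359, plus strand, bases 150 to 101 before the start: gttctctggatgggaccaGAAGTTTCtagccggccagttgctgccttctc
Hspa8, chr8:50080434-50080483, plus strand, bases 80 to 31 before the start: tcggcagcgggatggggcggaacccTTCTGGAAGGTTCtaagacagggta
The stretches of Hspe1 and Hspd1 are the same DNA read on opposite strands, since these genes lie head to head. Of the 24 members with an entry in that table, 14 were called higher and 9 of these (64.3%) held GAANNTTC within the 250 bases before the start. Of the 9 members not called, 4 (44.4%) held it, as did 1928 of all 27457 promoters (7.02%). The longer form was found in 4 of the 14 (28.6%), in 1 of the 9 (11.1%) and in 164 of all promoters (0.597%).

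Hspa1b, an inducible cytosolic Hsp70 chaperone, had log2 signals of 14.91, 13.96, 15.30 and 15.93 in PI pools 1 to 4 and 7.97, 8.23, 8.12 and 8.16 in the contralateral pools. All 4 PI pools lay above every contralateral pool and pool 4 was highest, and the change was 6.90 ± 0.30 (119.8-fold, adjusted p = 9.0e-12). Hspa1a, its near-identical copy, read 12.39, 11.61, 12.98 and 13.67 against 5.62, 6.22, 6.19 and 6.15, a change of 6.62 ± 0.35 (adjusted p = 1.4e-10). Transcripts of these copies could bind each other's probes, so their separate values are uncertain. Hspb1, the small heat shock protein Hsp27, read 13.96, 14.33, 14.17 and 14.33 in PI pools 1 to 4 and 8.52, 8.78, 8.58 and 9.55 in the contralateral pools. The groups did not overlap, and Hspb1 was 40.6-fold higher (5.34 ± 0.52, adjusted p = 3.8e-07). The lens crystallin chaperone Cryab, already bright on the contralateral side, rose 3.72-fold (1.90 ± 0.17) and the small heat shock protein Hspb8 3.45-fold (1.78 ± 0.21).

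Other classes of chaperone rose too. Bag3, a nucleotide exchange factor that pairs with Hsp70, rose by 2.86 ± 0.23 and Hsph1, the Hsp110 partner of Hsp70, by 2.38 ± 0.20. Hspd1 and Hspe1, which form the mitochondrial chaperonin, rose together by 1.48 ± 0.12 and 1.54 ± 0.12. The J-domain co-chaperones Dnaja1 and Dnajb1 rose by 1.47 ± 0.14 and 1.29 ± 0.17, the collagen chaperone Serpinh1 by 1.42 ± 0.25 and the Hsp70 family member Hspa2 by 1.39 ± 0.20. The brightest probe of Hsp90aa1 missed the 2-fold limit at 0.93 ± 0.19 while 2 dimmer probes of the gene were called at 1.32 and 1.03. For the constitutive Hspa8 the brightest probe read 0.57 ± 0.19 and another was called at 2.08. Hsf1, which encodes heat shock factor 1 itself, was not called, at 0.12 ± 0.18 (adjusted p = 0.63), and its sides overlapped.

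In the unfolded protein and integrated stress response, 8 of 22 genes were called higher and 0 lower, with a median of 0.78. The members called were Atf3, Trib3, Chac1, Sesn2, Ppp1r15a, Sdf2l1, Creld2 and Cebpb. Trib3, a pseudokinase induced by stress in the endoplasmic reticulum, read 9.69, 8.42, 9.70 and 10.42 in PI pools 1 to 4 and 5.23, 5.61, 5.61 and 5.56 in the contralateral pools. No PI pool came near the contralateral range, and the change was 4.05 ± 0.25 (adjusted p = 5.8e-10). Atf3, a stress transcription factor, read 10.06, 9.60, 11.67 and 12.76 in the PI pools and 4.99, 5.48, 5.19 and 6.72 on the contralateral side, a 43.1-fold difference (5.43 ± 0.55, adjusted p = 1.1e-06). Chac1, which degrades glutathione, rose by 1.63 ± 0.22, Ppp1r15a, which lets translation resume after stress, by 1.70 ± 0.21, and the transcription factor Cebpb by 1.74 ± 0.26. Ddit3, the transcription factor CHOP, stayed just under 2-fold at 0.95 ± 0.17 and was called without pool 1 (1.02) or without pool 2 (1.18). The count called higher was 5 with normexp background correction and 5 without pool 4.

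Immediate early genes, which neurons and glia transcribe within minutes of a stimulus, were called higher for 19 of 37 members and lower for 0, with a median of 1.13. Fosl1, a Fos family subunit of the transcription factor AP-1, read 8.02, 7.31, 9.15 and 10.12 in PI pools 1 to 4 and 0.80, 0.65, 1.70 and 2.08 in the contralateral pools. It was not well above background on any contralateral array, so the increase is at least 43.2-fold (fitted 7.34 ± 0.62, adjusted p = 5.3e-08). Fos read 8.85, 8.78, 10.53 and 12.18 in PI pools 1 to 4, against 6.59, 6.80, 7.20 and 7.53. The groups did not overlap, and pools 3 and 4 were higher than pools 1 and 2, with a change of 3.06 ± 0.32 (adjusted p = 1.3e-06). Jun rose by 1.67 ± 0.14, the growth regulator Myc by 2.37 ± 0.25, the stress gene Gadd45b by 2.15 ± 0.21 and Nptx2, a secreted pentraxin of excitatory synapses, by 1.92 ± 0.33. Ptgs2, the inducible cyclooxygenase, rose by 1.62 ± 0.33.

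The family did not move as a block. Arc, a synaptic plasticity gene, read 11.46, 11.59, 11.10 and 13.59 in PI pools 1 to 4 and 11.72, 12.27, 11.74 and 11.10 in the contralateral pools, so that it was lower in PI pools 1 to 3 and higher in pool 4. Its mean change was 0.23 ± 0.48 (adjusted p = 0.73), and without pool 4 it was -0.52. Egr1 behaved alike, with pool differences of -0.74, -0.12, 0.30 and 1.41 and a mean of 0.21 ± 0.29 that turned to -0.18 without pool 4. The list medians in pools 1 to 4 were 0.81, 0.52, 0.77 and 2.28, so the shift of the immediate early genes was largest in pool 4. Only 7 members were called higher with the slide as a block.

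**Figure D3:**
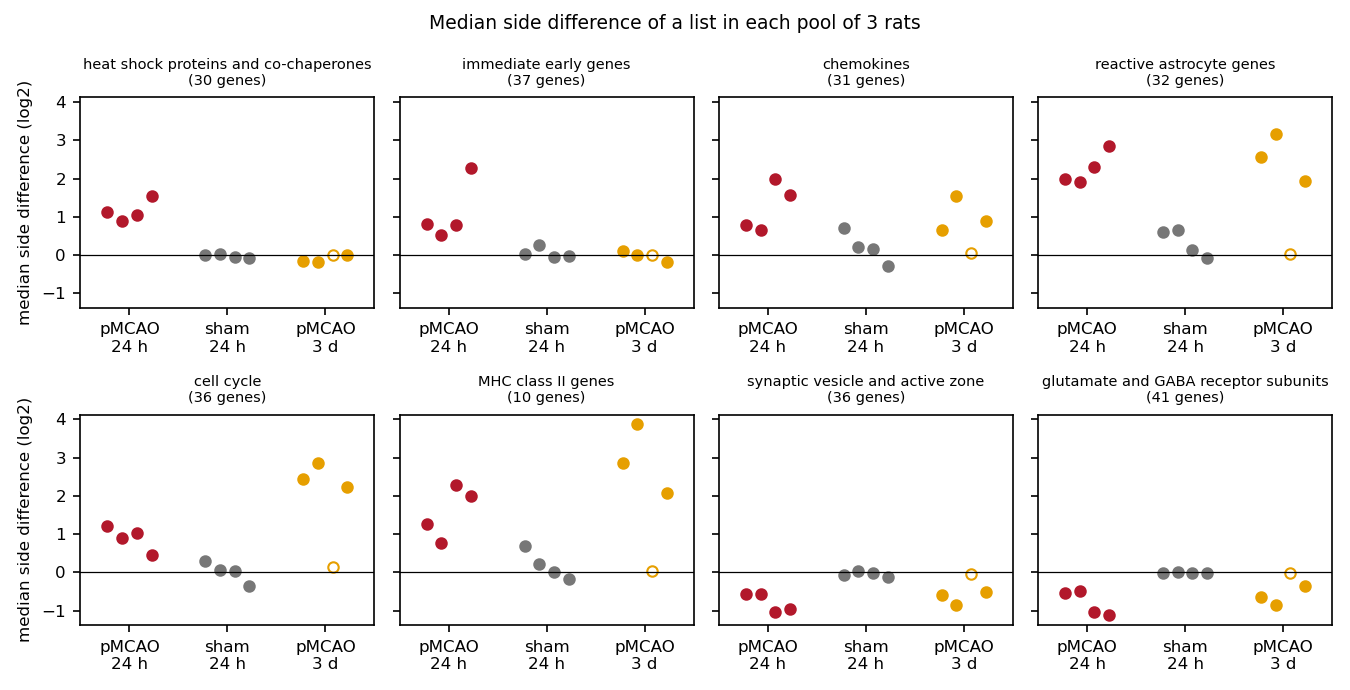
Median side difference (log2) of 8 gene lists in each pool of 3 rats: PI minus contralateral at 24 h (red), ipsilateral minus contralateral after sham surgery (grey) and PI minus contralateral at 3 d (orange). The open orange point is pool 11, which lay near 0 in all 8 lists, and immediate early genes at 24 h ranged from 0.52 in pool 2 to 2.28 in pool 4.

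Chemokines, the secreted proteins that draw leukocytes into tissue, were called higher for 16 of 31 members and lower for 1, with a median of 1.28. The promoters of 3 of them and of the cytokine Il6 are shown, because they hold GGG, any 2 bases and TTTCC, a motif of the type bound by NF-kappa-B. They are from the same table and build, and the capitals mark matches on either strand.
Cxcl1, chr14:17479382-17479441, minus strand, bases 120 to 61 before the start: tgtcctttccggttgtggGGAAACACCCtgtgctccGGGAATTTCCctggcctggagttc
Cxcl2, chr14:17467296-17467355, minus strand, bases 100 to 41 before the start: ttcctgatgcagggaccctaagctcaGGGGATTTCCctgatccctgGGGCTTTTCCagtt
Ccl20, chr9:91837049-91837098, plus strand, bases 110 to 61 before the start: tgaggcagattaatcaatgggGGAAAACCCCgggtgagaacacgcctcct
Il6, chr4:5894616-5894665, minus strand, bases 90 to 41 before the start: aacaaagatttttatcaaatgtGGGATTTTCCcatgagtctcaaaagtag
The motif occurred in 3 of the 10 chemokines called higher that had an entry (30%), in 1 of the 14 not called higher (7.14%) and in 351 of all 27457 promoters (1.28%).

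Ccl2, which attracts monocytes through Ccr2, read 11.88, 12.13, 12.18 and 14.60 in PI pools 1 to 4 and 3.38, 4.74, 4.25 and 6.50 in the contralateral pools. Every PI pool lay above every contralateral pool, pool 4 was highest on both sides, and the change was 7.98 ± 1.01 (253-fold, adjusted p = 1.1e-05). Of the contralateral arrays of Ccl2, 3 were well above background. Ccl7, a close relative of Ccl2, read 9.32, 10.36, 8.94 and 11.84 against 3.33, 3.25, 2.60 and 4.55 on its brightest probe, of which 1 contralateral array was well above background (6.68 ± 0.88), and another probe gave 7.03. Cxcl1 and Cxcl2, which attract neutrophils through Cxcr2, were among the 10 largest increases. Cxcl1 read 8.49, 7.81, 9.75 and 10.43 in PI pools 1 to 4 and 0.60, 0.60, 2.15 and 3.89 in the contralateral pools. Its change was 7.31 ± 1.05 (adjusted p = 4.0e-05) with 1 contralateral array well above background. Cxcl2 read 6.71, 5.39, 10.05 and 9.94 in PI pools 1 to 4 and 0.89, 1.04, 2.53 and 2.13 on the contralateral side, an increase of at least 27.9-fold with pools 3 and 4 highest.

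Further chemokines followed. Ccl20, which attracts cells that carry Ccr6, read 5.43, 5.93, 6.64 and 10.89 in PI pools 1 to 4 and 0.79, 0.82, 0.76 and 1.65 in the contralateral pools. The PI pools all lay above the contralateral pools, none of which was well above background, and pool 4 alone was above 10, so Ccl20 was at least 16.1-fold higher (adjusted p = 1.9e-05). Ccl3, a ligand of Ccr1, rose by 5.32 ± 0.46, Ccl12 by 5.26 ± 0.71 with 1 of 4 contralateral arrays well above background, Cxcl3 by 3.96 ± 0.60 with 2 of 4, and Cxcl10, an interferon-inducible ligand of Cxcr3, by 2.61 ± 0.65. Cxcl12, which keeps cells in place through Cxcr4, was the member called lower. It read 9.84, 9.98, 10.14 and 9.76 in the PI pools against 11.16, 11.35, 10.82 and 10.88, without overlap, a change of -1.12 ± 0.16 on this probe, while a dimmer probe was at -0.45 and not called. Cx3cl1, the neuronal ligand of the microglial receptor Cx3cr1, was at -0.86 ± 0.17 on its brightest probe, not called, and another probe was called at -1.38. Among 16 chemokine receptors, 3 were called higher, among them Ccr1 and Ccr2, and Ccr10 and Cxcr1 lower. Ccr1 rose by at least 3.73-fold (adjusted p = 0.0019). Chemokines called higher were 7 with normexp and 8 with the slide block, and receptors 1 and 0, with 5 receptors called higher without pool 2. No receptor was called lower with normexp or with the slide block.

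Of 24 cytokines, 11 were called higher and 1 lower, with a median of 0.58. Clcf1, a ligand of the ciliary neurotrophic factor receptor, read 8.71, 9.06, 8.21 and 9.73 in PI pools 1 to 4 and 4.50, 4.58, 4.32 and 4.72 in the contralateral pools. All PI pools lay well above the contralateral ones, with a change of 4.40 ± 0.35 (21.1-fold, adjusted p = 2.7e-08). Il6 read 3.15, 2.37, 5.76 and 7.88 in PI pools 1 to 4 and 0.96, 1.68, 1.38 and 1.39 in the contralateral pools. All PI pools exceeded the contralateral ones, but the spread was wide, from a difference of 0.70 in pool 2 to 6.50 in pool 4, and the increase is at least 2.98-fold (adjusted p = 6.6e-05). Il1b rose by 2.85 ± 0.48 and its antagonist Il1rn by 3.76 ± 0.43, where a second probe of Il1rn was at 1.11. Csf1, the growth factor of microglia, rose by 1.84 ± 0.27 and Il18 by 1.21 ± 0.24. Tnf was dim, with 1 contralateral array well above background, and overlapped between the sides although it was called (1.36 ± 0.33, adjusted p = 0.0033). The count called higher was 4 with normexp, 6 in the normalized table that the authors deposited and 2 with the slide block.

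Their receptors and signalling proteins were called higher for 14 of 28 members and lower for 0 (median 1.12). Tnfrsf12a, the receptor of the cytokine TWEAK, read 11.11, 11.70, 11.57 and 12.74 in PI pools 1 to 4 and 7.48, 7.86, 7.44 and 7.96 in the contralateral pools. The groups did not overlap and the change was 4.10 ± 0.34 (adjusted p = 4.7e-08). Il1r2, a decoy receptor for interleukin 1, rose by 3.45 ± 0.52 with 2 of 4 contralateral arrays well above background, and Il1rl1, the receptor of interleukin 33, by at least 3.26-fold, with another probe at 0.63. Stat3, which relays signals of the interleukin 6 family, rose by 1.76 ± 0.24 and its inhibitor Socs3 by 2.55 ± 0.39. The list count was 9 with normexp and 4 with the slide block.

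Pattern recognition, NF-kappa-B and interferon genes were called higher for 16 of 35 members (median 0.99). Cd14, the co-receptor for lipopolysaccharide, read 11.31, 10.63, 11.37 and 12.65 in PI pools 1 to 4 and 6.47, 6.75, 6.77 and 7.73 in the contralateral pools. The sides did not overlap and the change was 4.56 ± 0.53 (adjusted p = 4.0e-06). The atypical NF-kappa-B inhibitor Nfkbiz rose by 1.92 ± 0.29 and the immunoproteasome subunit Psmb8 by 1.96 ± 0.32. Complement and acute phase genes were called higher for 18 of 28 members, with a median of 1.38. Lcn2, an iron-binding acute phase protein of reactive astrocytes and neutrophils, read 10.80, 10.37, 11.54 and 10.74 in PI pools 1 to 4 and 4.70, 5.47, 5.25 and 5.13 in the contralateral pools. No value overlapped, and the change of Lcn2 was 5.73 ± 0.66 (adjusted p = 3.8e-06). Ptx3, a soluble pentraxin, was not well above background on any contralateral array and rose at least 11.4-fold, with PI signals of 5.83, 5.83, 6.20 and 9.05. C1qa, which microglia express at rest, was at 0.40 ± 0.23 and not called (adjusted p = 0.18). With normexp and with the slide block the counts were 8 and 3 for pattern recognition and 9 and 4 for complement.

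Of 23 genes of endothelial adhesion, coagulation and fibrinolysis, 17 were called higher and 0 lower, with a median of 1.67. Sele, the E-selectin on which leukocytes roll, read 8.56, 7.03, 7.54 and 9.98 in PI pools 1 to 4 and 2.21, 3.08, 3.45 and 2.82 in the contralateral pools. It was above background on no contralateral array and was at least 32.1-fold higher in the PI area (adjusted p = 2.5e-06), most in pools 1 and 4. Icam1, which holds leukocytes firmly, rose by 2.35 ± 0.29 without overlap and Procr, the receptor of protein C, by 2.80 ± 0.37. Plau, the urokinase, rose by 3.18 ± 0.62 and its receptor Plaur by 4.13 ± 0.72, each with 1 of 4 contralateral arrays well above background. Vcam1 was at -0.09 ± 0.12 and not called. With the slide block 5 members were called higher. The 8 endothelial markers summed to 9716 to 17762 in the PI area and to 7589 to 9622 on the contralateral side, and the 7 markers of pericytes and smooth muscle to 4319 to 5688 against 2896 to 3833. Neither sum overlapped between the sides, but a sum follows its brightest members. The median difference of the endothelial markers was 0.12, 0.23, 1.01 and 0.62 in pools 1 to 4, and 1 of them was called higher. For the markers of pericytes and smooth muscle the median was -0.04, -0.18, -0.04 and 0.20. The part of these shifts in the calls of vessel genes was not tested.

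Among 23 tight junction and blood-brain barrier genes, 2 were called higher, among them Slc16a1, and Cldn1, Slco1c1 and Slco1a4 lower, with a median of 0.01, where 9.87% of all genes were called higher and 5.93% lower. The organic anion transporters Slco1c1 and Slco1a4 of brain endothelium were at -1.25 ± 0.22 and -1.27 ± 0.24, most in pool 4, and without that pool they were at -0.86 and -0.81 and not called. Another probe of Slco1a4 was at -0.93. Cldn5, the main claudin of these vessels, was at -0.15 ± 0.19 and not called, and its sides overlapped. No barrier gene was called higher with normexp or without pool 4, and none was called lower with the slide block or without pool 4. Of 24 angiogenic genes, 6 were called higher, Kdr, Flt4, Angpt2, Angptl4, Esm1 and Sox7, and Adgrb1 was called lower. Angpt2, which loosens vessels, read 9.80, 9.79, 11.27 and 11.37 in the PI pools against 7.70, 8.35, 8.36 and 8.30, a change of 2.38 ± 0.31 (adjusted p = 1.6e-05). Esm1, a proteoglycan of sprouting endothelium, rose by 5.72 ± 1.00 with 1 contralateral array well above background and Kdr, a receptor of VEGF, by 1.34 ± 0.26. Vegfa had pool differences of -0.44, 0.28, -0.61 and 0.56 and was not called (-0.05 ± 0.24, adjusted p = 0.88). With the slide block 3 angiogenic genes were called higher.

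Matrix genes were called higher more often than lower. Of 33 matrix glycoproteins and proteoglycans, 9 were called higher and Cspg5 and Hapln1 lower, where 9.87% of all genes were called higher and 5.93% lower. Cd44, the receptor of hyaluronan and osteopontin, read 10.15, 10.49, 10.28 and 11.43 in PI pools 1 to 4 and 5.64, 6.04, 5.76 and 6.99 in the contralateral pools. The sides were apart and the pool differences were alike (4.51, 4.46, 4.53 and 4.44), for a change of 4.48 ± 0.55 (adjusted p = 8.6e-06), whereas another probe of the gene was at 0.12. Has1, which makes hyaluronan, was above background on no contralateral array and rose at least 41.0-fold. Fibronectin, Fn1, rose by 1.53 ± 0.29 and Col4a1 of the basement membrane by 1.80 ± 0.36 on its brightest probe, with another at 0.13. Hapln1, a link protein of perineuronal nets, was lower, at 4.58, 5.12, 4.64 and 4.24 against 5.91, 6.35, 6.16 and 6.06, without overlap (-1.48 ± 0.19). Of 30 matrix proteases and inhibitors, 9 were called higher and Mmp17 and Timp4 lower. Timp1, the inducible inhibitor of metalloproteases, read 13.70, 14.37, 14.72 and 15.74 in PI pools 1 to 4 and 9.26, 9.50, 10.23 and 9.71 in the contralateral pools. It was 31.1-fold higher (4.96 ± 0.61, adjusted p = 8.3e-06), while Timp4 changed by -1.53 ± 0.20. The macrophage elastase Mmp12 rose at least 6.14-fold, the gelatinase Mmp9 by 1.98 ± 0.27 and the membrane protease Mmp14 by 1.57 ± 0.34, and Mmp17 was at -1.80 ± 0.34. With the slide block the counts called higher were 5 for glycoproteins and 3 for proteases, and with normexp 3 for proteases. The counts called lower, 2 in each list, became 0 with normexp and 1 with the slide block for glycoproteins and 1 and 0 for proteases.

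Lists of astrocyte genes had medians in opposite directions. Of 32 reactive astrocyte genes, 27 were called higher and 0 lower, with a median of 2.32, the highest median of the lists used. Gfap, the intermediate filament of reactive astrocytes, read 11.76, 11.66, 11.88 and 11.52 in PI pools 1 to 4 and 7.91, 8.04, 7.91 and 8.96 in the contralateral pools. The sides did not overlap, contralateral pool 4 was the highest of its side, and Gfap was 11.3-fold higher (3.50 ± 0.45, adjusted p = 1.3e-05). The intermediate filaments Vim and Nes rose by 1.67 ± 0.40 and 2.50 ± 0.41. The general astrocyte markers went the other way: 4 of 11 were called lower and 1 higher, with a median of -0.42, and their summed signal was lower in every PI pool as given above. Gjb6, the gap junction protein connexin 30, read 10.85, 10.95, 10.65 and 10.31 in PI pools 1 to 4 and 12.22, 12.45, 12.53 and 12.60 in the contralateral pools. No values overlapped, and it fell 3.38-fold (-1.76 ± 0.21, adjusted p = 5.3e-06). Aldh1l1, a folate enzyme of astrocytes, changed by -1.12 ± 0.12 in a narrow range over the pools (-0.94, -1.27, -1.06 and -1.21), and Kcnj10, their inward rectifier potassium channel, by -1.38 ± 0.23, with 2 PI arrays well above background and no call when scaled to the 75th percentile (-0.82). With the slide block 14 reactive genes were called higher and 1 general astrocyte marker lower, and 2 general markers were called lower in the authors' table.

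Of 17 markers of microglia and macrophages, 5 were called higher and 2 lower. The lower calls numbered 0 with normexp, 0 with the slide block, 1 without pool 4 and 1 in a fit to the 8 arrays alone. The lysosomal protein Cd68 read 9.39, 8.84, 9.78 and 9.91 in PI pools 1 to 4 and 7.26, 7.18, 7.09 and 7.09 in the contralateral pools, without overlap, and rose by 2.33 ± 0.52 (adjusted p = 0.0015). The integrin Itgam rose by 2.25 ± 0.29, the signalling adaptor Tyrobp by 1.64 ± 0.29 and the scavenger receptor Msr1 at least 7.53-fold. Aif1, the pan-microglial protein Iba1, was at 0.72 ± 0.25 and not called. The markers called lower were P2ry12 and Tmem119, which are typical of resting microglia. P2ry12, a purine receptor that steers microglial processes, read 9.91, 10.27, 9.71 and 8.05 in PI pools 1 to 4 and 10.67, 10.56, 10.53 and 10.49 in the contralateral pools. Its change of -1.08 ± 0.28 rested on pool 4, since without it the value was -0.62 and not called, nor was it called in a fit to the 8 arrays alone. Tmem119 was dim, with 1 PI array well above background, and read 1.40, 1.90, 0.58 and 3.48 against 3.85, 4.61, 3.96 and 3.54 (-2.15 ± 0.39, adjusted p = 3.2e-04). The related receptor P2ry13 changed by -1.65 ± 0.36 with 2 PI arrays well above background. MHC class II genes, which present antigen, were called higher for 8 of 10 (median 1.55), and the invariant chain Cd74 rose by 1.92 ± 0.43 with pool differences of 1.79, 0.90, 2.37 and 2.62. The MHC class II count was 3 with normexp and 0 with the slide block, and that of the microglial markers called higher was 2 with the slide block.

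Of 36 cell death and p53 target genes, 18 were called higher and Aifm3 lower, with a median of 1.08. Ripk3, the kinase of necroptosis, read 9.65, 9.47, 10.17 and 10.90 in PI pools 1 to 4 and 6.19, 6.19, 6.20 and 6.66 in the contralateral pools. It was 13.3-fold higher without overlap (adjusted p = 1.2e-06). Birc3, an inhibitor of apoptosis, rose by 3.31 ± 0.39, the inflammatory caspase Casp4 by 2.02 ± 0.23, and the p53 targets Cdkn1a and Gadd45a by 2.38 ± 0.24 and 2.44 ± 0.22. Aifm3 changed by -1.48 ± 0.24. Cell cycle genes were called higher for 16 of 36 (median 0.92). Cdk1, the kinase of mitotic entry, read 8.98, 8.01, 8.43 and 6.61 in PI pools 1 to 4 and 4.76, 4.84, 4.61 and 4.63 in the contralateral pools. All PI pools were above the contralateral ones and pool 4 was the lowest of them, with a change of 3.30 ± 0.62 (adjusted p = 3.9e-04). Top2a and Rrm2, needed to untangle and to build DNA, rose at least 4.78-fold and 2.84-fold, and Ccnb1 was not called (0.63 ± 0.45). The median of the cycle genes was 1.22, 0.90, 1.02 and 0.46 in pools 1 to 4, lowest in pool 4 where the immediate early genes were highest. With normexp and the slide block, 9 and 9 death genes and 1 and 5 cycle genes were called higher.

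Growth factors and their receptors were called higher more often than lower, where 9.87% of all genes were called higher and 5.93% lower. Of 39 growth and neurotrophic factors, 8 were called higher (Ntf4, Fgf2, Igfbp3, Hbegf, Areg, Tgfb1, Inhba and Gdf15) and Gdf10 lower. Gdf15, a stress-induced factor of the TGF-beta family, read 7.79, 5.65, 8.73 and 9.57 in PI pools 1 to 4 and 2.86, 2.68, 3.13 and 4.36 in the contralateral pools. The groups did not overlap, 1 contralateral array was well above background, and the change was 4.68 ± 0.51 (adjusted p = 2.1e-06). Hbegf, a ligand of the EGF receptor, rose by 2.59 ± 0.29 and Gdf10 changed by -1.36 ± 0.18. Among 21 receptors of such factors, Ngfr, Gfra1, Ret and Tgfbr2 were called higher and Gfra2 and Erbb4 lower. Ret and Gfra1, the receptor pair of GDNF, rose by 2.52 ± 0.29 and 1.66 ± 0.21, and Erbb4, a neuregulin receptor of interneurons, changed by -1.71 ± 0.23. Of 18 neuropeptides and granins, Gal, Calca and Calcb were called higher and Cort lower. Galanin, Gal, read 9.56, 9.66, 9.47 and 10.47 in the PI pools and 6.17, 6.77, 6.81 and 6.58 on the contralateral side, a change of 3.21 ± 0.40 (adjusted p = 1.0e-05). Calcb, a calcitonin gene-related peptide, rose by 3.08 ± 0.46 and Cort, the cortistatin of interneurons, changed by -1.25 ± 0.26. Growth factors called higher numbered 4 with normexp and 4 with the slide block, and their receptors 2 in each, as well as without pool 3 or pool 4.

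Antioxidant, metallothionein and iron genes were called higher for 10 of 21 (median 0.95). Hmox1, the inducible heme oxygenase, read 11.66, 10.77, 11.64 and 13.38 in PI pools 1 to 4 and 6.64, 6.94, 7.04 and 7.00 in the contralateral pools. Every PI pool was above 10 and every contralateral pool near 7, a 31.1-fold difference (4.96 ± 0.52, adjusted p = 1.3e-06). The metallothioneins Mt1 and Mt2A rose by 2.27 ± 0.31 and 1.74 ± 0.31. Of 23 hypoxia-inducible factor targets and glycolysis genes, 5 were called higher (Adm, Hk2, Pfkfb3, Slc16a3 and P4ha2) and Aldoc lower, and the median was -0.05. Slc16a3, the exporter of lactate, rose by 2.96 ± 0.32 and the vasodilator peptide Adm by 1.55 ± 0.30. Antioxidant calls numbered 6 with normexp, 3 with the slide block and 4 without pool 4, and hypoxia calls 2, 1 and 3 (3 in the authors' table). Of 18 proteasome genes 3 were called higher (median 0.38), where 9.87% of all genes were, or 1 with the slide block. Of 32 cytosolic ribosome genes 4 were called higher (median 0.47), or 2 without pool 2 or pool 3 and 0 with the slide block, and none of 25 mitochondrial respiratory chain genes was called (median -0.31).

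Many neuronal genes were lower in the PI area. Of 36 synaptic vesicle and active zone genes, 8 were called lower and 1 higher, where 5.93% of all genes were called lower, and the median was -0.83. Another 25 were negative without a call and 2 positive. Snap25, a fusion protein of the presynaptic terminal, read 14.29, 14.25, 13.77 and 13.63 in PI pools 1 to 4 and 15.18, 15.10, 15.22 and 15.34 in the contralateral pools. The groups did not overlap, PI pools 3 and 4 were lower than pools 1 and 2, and Snap25 fell 2.34-fold (-1.23 ± 0.21, adjusted p = 1.6e-04). Rab3a, a vesicle GTPase, changed by -1.45 ± 0.25 and Syn1, which tethers vesicles, by -1.09 ± 0.21, or by -0.96 without pool 3, where it was not called. The member called higher was Sypl2, at 1.98 ± 0.23, with a second probe at 0.96. Under the slide block none of the list was called lower, with normexp 5 were, and without pool 3 again 5.

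Postsynaptic scaffolds and kinases were called lower for 17 of 41 members and higher for 1 (median -0.89). Camk2a, the calcium-calmodulin kinase of plasticity, read 9.47, 9.57, 8.41 and 7.96 in PI pools 1 to 4 and 10.58, 10.38, 10.33 and 10.04 in the contralateral pools. All PI pools were below all contralateral pools, and the fall was 2.79-fold (-1.48 ± 0.27, adjusted p = 3.5e-04), while another probe was at -0.68 and not called. Nrgn, a calmodulin-binding protein of dendrites, read 14.61, 14.80, 13.85 and 13.81 against 15.69, 15.69, 15.63 and 15.60. It changed by -1.39 ± 0.20 (adjusted p = 5.1e-05). The upstream kinase Camkk2 changed by -1.57 ± 0.23, the scaffold Dlg3 had pool differences of -0.86, -0.96, -1.99 and -2.18, and the scaffold Homer3 rose by 1.73 ± 0.20. The count called lower was 11 with normexp, 10 without pool 3, 11 without pool 4 and 0 with the slide block.

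Receptors and channels followed the same direction. Glutamate and GABA receptor subunits were called lower for 11 of 41 and higher for 1 (median -0.82). Grin2a, an NMDA receptor subunit, read 7.78, 8.27, 7.18 and 7.14 in PI pools 1 to 4 and 9.03, 9.31, 9.04 and 9.11 in the contralateral pools. It fell 2.88-fold without overlap (-1.53 ± 0.22, adjusted p = 4.2e-05). Grin2b changed by -1.42 ± 0.29 and the metabotropic receptor Grm5 by -1.66 ± 0.30. The AMPA receptor subunit Gria2 changed by -1.13 ± 0.23, was not called without pool 4 (-0.81), and had another probe at -0.94. Of 76 potassium channel genes, 17 were called lower and 5 higher (median -0.60). Kcnip2, an accessory subunit of A-type channels, changed by -1.73 ± 0.28, and Kcnn4, a calcium-activated channel of microglia and other immune cells, rose from 5.40, 5.42, 5.40 and 5.72 to 8.78, 7.96, 8.72 and 8.63 (3.04 ± 0.47). Of 36 voltage-gated sodium and calcium channel genes, 6 were called lower, among them Scn1a (-1.16 ± 0.23), and 2 higher. With normexp, 5 receptor subunits, 4 potassium channels and 4 sodium and calcium channels were called lower, with the slide block 0 of each, and without pool 1 the receptor count was 18. Potassium channels called higher were 2 with normexp, 1 with the slide block and 3 without pool 4.

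Markers of neuron classes and of axon guidance were lower too. Of 20 interneuron and projection neuron markers, 7 were called lower and 0 higher, with a median of -0.61. The calcium buffer Calb1 read 9.13, 9.61, 8.25 and 8.87 in PI pools 1 to 4 and 10.42, 10.26, 10.59 and 10.74 in the contralateral pools, without overlap, and changed by -1.54 ± 0.27. Kcnc2, a channel of fast-spiking interneurons, changed by -1.24 ± 0.27, whereas Gad1, which makes GABA, was at -0.12 ± 0.23 and not called, with overlapping sides. Axon guidance genes were called lower for 14 of 66 and higher for 1 (median -0.41). Rtn4r, the Nogo receptor that restrains axon growth, read 11.15, 11.31, 10.51 and 10.06 against 12.27, 12.28, 12.16 and 12.17. It fell 2.75-fold (-1.46 ± 0.21, adjusted p = 3.2e-05), while the repellent Sema3a changed by -1.51 ± 0.27 and the receptor Epha6 by -1.49 ± 0.25, where another Epha6 probe was at -0.83. Lower calls among the neuron markers were 1 with normexp, 2 in the authors' table, 0 with the slide block and 4, 4 and 3 without pools 2, 3 and 4. For axon guidance they were 1 with normexp, 9 in the authors' table and 1 with the slide block. Scaling to the 75th percentile left the medians of these neuronal lists below 0.

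**Figure D4:**
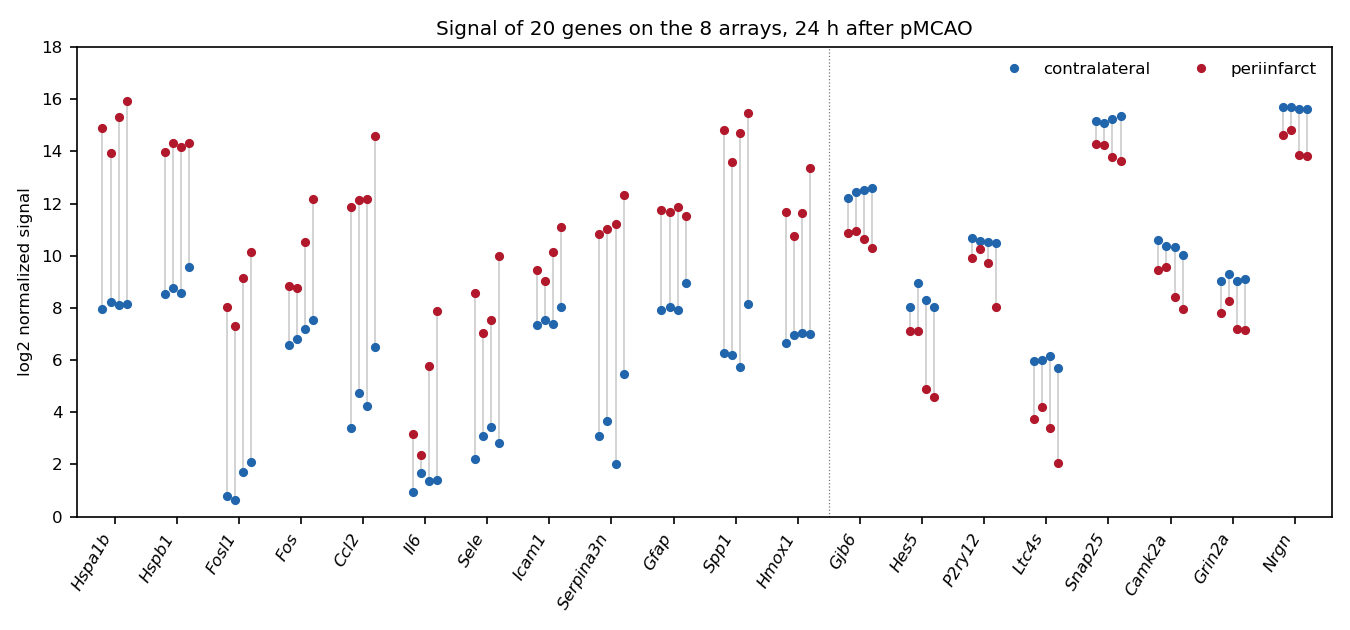
Log2 normalized signal of 20 genes on the 8 arrays, with 1 pair of points per pool joined by a grey line, contralateral in blue and PI in red. Genes left of the dotted line were higher in the PI area and genes right of it lower, and the pairs did not cross in any pool.

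The 10 largest decreases were smaller than the increases and mostly of dim probes. They were Defb1, Ltc4s, Cilp, Magee2, Cdh23, Notum, Tril, Hes5, Hs3st6 and Arr3, and with normexp background correction Hes5 alone among them kept its call. Hes5, a Notch target that keeps neural progenitors undifferentiated, read 7.10, 7.10, 4.90 and 4.59 in PI pools 1 to 4 and 8.02, 8.94, 8.30 and 8.04 in the contralateral pools. PI pools 3 and 4 were well below pools 1 and 2, the sides did not overlap, and the fall was 5.29-fold (-2.40 ± 0.33, adjusted p = 2.7e-05). Ltc4s, the synthase of leukotriene C4, read 3.73, 4.19, 3.41 and 2.06 in the PI pools and 5.96, 6.01, 6.14 and 5.71 on the contralateral side. It changed by -2.61 ± 0.22 (adjusted p = 7.1e-08), with 3 PI arrays well above background. Cilp, a cartilage matrix protein, changed by -2.54 ± 0.27 and the beta-defensin Defb1 by -2.68 ± 0.51 with 3 PI arrays well above background. Notum, an enzyme that inactivates Wnt proteins, was at -2.44 ± 0.27, with 3 such arrays, the heparan sulfotransferase Hs3st6 at -2.39 ± 0.34 with 2, and the cadherin Cdh23 at -2.46 ± 0.34 with 2. Tril, an accessory of Toll-like receptors, was at -2.41 ± 0.39 on a dim probe and at -1.70 and -1.49 on brighter ones, which were also called. Arr3, an arrestin of cones, was at -2.33 ± 0.46 with 3 PI arrays well above background, and Magee2 was at least 3.61-fold lower.

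Counts in the lists that follow are to be read against 9.87% of all genes called higher and 5.93% called lower. In the Notch, Hes and Id list of 30 genes, 4 were called lower, among them Hes5, Neurod1 and Neurod6, and Notch3, Hes2, Id1, Mfng and Sox11 were called higher. The counts were 1 lower and 1 higher with normexp, 0 and 0 with the slide block, and 2 and 2 without pool 4. Among 19 purinergic genes, P2rx7, P2ry12 and P2ry13 were called lower and Entpd1, Ada, P2ry2 and P2ry6 higher. Lower calls in that list numbered 0 with normexp, 1 with the slide block and 1 without pool 4, and higher calls 1 with normexp and 0 with the slide block. Of 25 cholesterol genes 2 were called higher and 2 lower, and of 21 circadian and glucocorticoid genes 0 and 2. Solute carriers (281 genes) were called higher for 25 and lower for 25, and 40 were called higher when scaled to the 75th percentile. Without pool 4 the solute carrier counts were 15 and 14, with normexp 6 and 5, and with the slide block 5 and 4.

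After sham surgery alone, few probes were called between the hemispheres. The same fit of ipsilateral minus contralateral cortex in pools 5 to 8 called 1 probe (0.00328%), where 784 probes had an unadjusted p below 0.05. This does not show that the sham sides are alike. In single sham pools 1220 to 3525 probes were at least 2-fold higher ipsilaterally and 1295 to 2133 lower, most in pool 8. In the 24 h infarct pools these counts were 3029 to 4848 and 1913 to 5016. The PI side difference was larger than the sham side difference for 1224 probes (4.01%) and smaller, that is more negative, for 1105 (3.62%), by a test of the difference itself, and 2060 probes were called both here and in the comparison of the hemispheres. Single genes were not silent after sham surgery. Ccl2 had side differences of 4.51, 5.80, 1.60 and -0.65 in sham pools 5 to 8 and Serpina3n of 5.36, 4.43, 1.65 and 3.32, with Ccl2 higher in pools 5 and 6 than in pools 7 and 8. Ccl20 did likewise, at 6.22, 4.23, 0.04 and -0.11. The excess over sham was still called for Ccl2 (5.17 ± 1.43, adjusted p = 0.021), Serpina3n (4.10 ± 1.25, adjusted p = 0.033) and Ccl20 (3.62 ± 1.17, adjusted p = 0.043). Esm1 and Cxcl10, by contrast, were not called against sham, at 3.74 ± 1.41 (adjusted p = 0.078) and 1.51 ± 0.92 (adjusted p = 0.29), nor were Il1b (1.61 ± 0.67, adjusted p = 0.11), Il1r2 (1.77 ± 0.74, adjusted p = 0.11), Vim (1.54 ± 0.57, adjusted p = 0.074) and Cd74 (1.56 ± 0.61, adjusted p = 0.086). P2ry12 was not called below sham (-0.94 ± 0.39, adjusted p = 0.11).

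The largest excesses over sham were those of Fosl1, Hspa1b, Has1, Hspa1a and Ptx3. Hspa1b had sham side differences of -0.16, -0.10, 0.82 and 0.10, so its excess of 6.74 ± 0.42 (adjusted p = 1.2e-08) was close to its change between hemispheres. Fosl1 was dim in sham cortex, with side differences of -2.55, 1.23, 1.18 and -1.19, and its excess was 7.67 ± 0.88 (adjusted p = 1.2e-05). Has1 exceeded sham by 6.45 ± 0.88 and Ptx3 by 5.78 ± 1.00. No contralateral array at 24 h was well above background for Fosl1, Has1, Ptx3 or Ccl20, so their fitted excesses are no bounds and their ranks are uncertain. The largest deficits were those of Defb1 (-2.67 ± 0.72), the phospholipase Pla2g3 (-2.34 ± 0.48), Hes5 (-2.34 ± 0.47), Notum (-2.30 ± 0.38) and Magee2 (-2.24 ± 0.47), which was not well above background on any PI array. By list, 14 of 30 heat shock genes, 23 of 32 reactive astrocyte genes, 16 of 37 immediate early genes, 16 of 23 endothelial genes and 9 of 31 chemokines were called above sham. On the other side, 17 of 41 postsynaptic genes, 11 of 41 receptor subunits and 6 of 36 vesicle genes were called below sham, where 3.62% of all probes were. MHC class II (2 of 10), complement (6 of 28), pattern recognition (7 of 35) and cell cycle genes (5 of 36) were also called above sham, where 4.01% of all probes were. These shares are over all probes, named or not, whereas the lists count 1 probe per gene, so the units differ. The count of all calls against sham ranged from 875 to 2589 when single pools were left out and was lowest without pool 4. Scaled to the 75th percentile, 1356 probes were above and 663 below sham.

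The same hemispheric comparison in other rats at 3 d called 1655 probes higher (5.42%) and 118 lower (0.387%), and 2460 higher and 635 lower without pool 11. At both times 840 probes were called higher and 46 lower. The side difference was larger at 24 h than at 3 d for 535 probes (1.75%) and smaller for 578 (1.89%), or for 728 and 1149 without pool 11, by a test of the difference itself. Scaled to the 75th percentile, these counts were 650 and 277. The calls at 3 d depended on the fit. A fit to the arrays of that contrast alone called 0 probes at 3 d, where 5625 had an unadjusted p below 0.05, and the slide block called 0, where 3170 did. The difference between the times was called for 235 and 247 probes in these fits.

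Many chaperone genes had a larger side difference at 24 h. Over all probes, 1.75% were called larger at 24 h and 5.42% higher at 3 d. Without pool 11 these were 728 and 2460 of 30514 probes. The lists count 1 probe per gene, so the units differ. Of 30 heat shock genes, 15 were called larger at 24 h and 5 were called higher at 3 d, against 16 and 7 without pool 11. Hspa1b had 3 d side differences of 1.05, 2.11, 0.05 and 1.14 in pools 9 to 12, and its difference between the times was 5.82 ± 0.42 (adjusted p = 6.6e-08), or 5.47 without pool 11. Hsph1 was at 2.38 ± 0.20 at 24 h and at -0.49 ± 0.20 at 3 d (2.96 for the difference without pool 11). The transcripts named in the deposited files only as LOC689410 and LOC686038 rose at 24 h by 4.94 ± 0.24 and at least 7.42-fold, and at 3 d they were at -0.13 ± 0.24 and -0.22 ± 0.44, or -0.18 and -0.24 without pool 11. Immediate early genes were called larger at 24 h for 10 of 37 members, among them Fos (2.60 ± 0.45, adjusted p = 0.0016, or 2.44 without pool 11). Trib3 (3.24 ± 0.35, adjusted p = 5.2e-06, or 3.9e-05 without pool 11), Clcf1 (2.86 ± 0.50, or 2.33 without pool 11) and Cxcl2 (4.89 ± 0.84, or 3.96 without it) were larger at 24 h too, and so was Ccl20, at 5.06 ± 1.17 (adjusted p = 0.014, or 0.024 without pool 11). Il6 differed by 2.98 ± 0.74 (adjusted p = 0.02), or by 2.73 (adjusted p = 0.041) without pool 11. For Cxcl2, Ccl20, Il6 and LOC686038 no contralateral array at 24 h was well above background, so these fitted differences are no bounds. Hspb1 was at 3.51 ± 0.52 at 3 d, and its difference between the times was not called (1.84 ± 0.73, adjusted p = 0.13). Without pool 11 these values were 4.63 and 0.72 (adjusted p = 0.32).

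Other groups were larger at 3 d. Over all probes, 5.42% were called higher at 3 d and 1.89% smaller at 24 h. Without pool 11 these were 2460 and 1149 of 30514 probes. Without pool 11, 28 of 36 cell cycle genes were called higher at 3 d and 16 were called smaller at 24 h, against 25 and 6 with it. Ccnb1, not called at 24 h, had 3 d differences of 3.88, 4.29, 0.33 and 3.50, and the difference between the times was -2.37 ± 0.64 (adjusted p = 0.03), or -3.26 without pool 11. Microglial markers were called higher at 3 d for 13 of 17 members and smaller at 24 h for 5 (15 and 11 without pool 11). C1qa, at 0.40 at 24 h, had 3 d differences of 2.06, 2.25, 0.10 and 1.82 (difference between times -1.16 ± 0.33, adjusted p = 0.037, or -1.65 without pool 11). For Cd68 the difference was -1.22 ± 0.73 (adjusted p = 0.31) with pool 11 and -2.36 (adjusted p = 0.0024) without it, and for Aif1 it was -1.01 ± 0.36 (adjusted p = 0.091) and -1.57 (adjusted p = 6.7e-05). P2ry12 was lower on the PI side at 24 h, although without pool 4 that change was -0.62 and not called. At 3 d it was 1.48 higher on the PI side without pool 11. Its difference between the times was -2.19 ± 0.39 (adjusted p = 0.0019), or -2.56 without pool 11. P2ry13 (-2.56 ± 0.51), Ltc4s (-2.86 ± 0.32), Fmo4, a flavin monooxygenase (-2.65 ± 0.40), Grifin, a galectin-related protein (-2.46 ± 0.41), and Cilp (-2.41 ± 0.38) were the 5 with the most negative difference. Without pool 11 they were at -3.01, -2.92, -2.75, -2.84 and -2.32, and Fmo4 was not well above background on any PI array at 24 h. Grifin was called lower at 24 h (-1.13 ± 0.29) but not without pool 3 (-0.92) or when scaled to the 75th percentile (-0.68). Aldh1l1, lower at 24 h, was at 0.11 ± 0.12 at 3 d (difference -1.22 ± 0.16, adjusted p = 8.2e-05, or -1.26 without pool 11). Of 32 reactive astrocyte genes 21 were called higher at 3 d, or 24 without pool 11, and Gfap did not differ by a call between the times (1.23 ± 0.64, adjusted p = 0.24), also without pool 11 (0.38, adjusted p = 0.64).

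**Figure D5:**
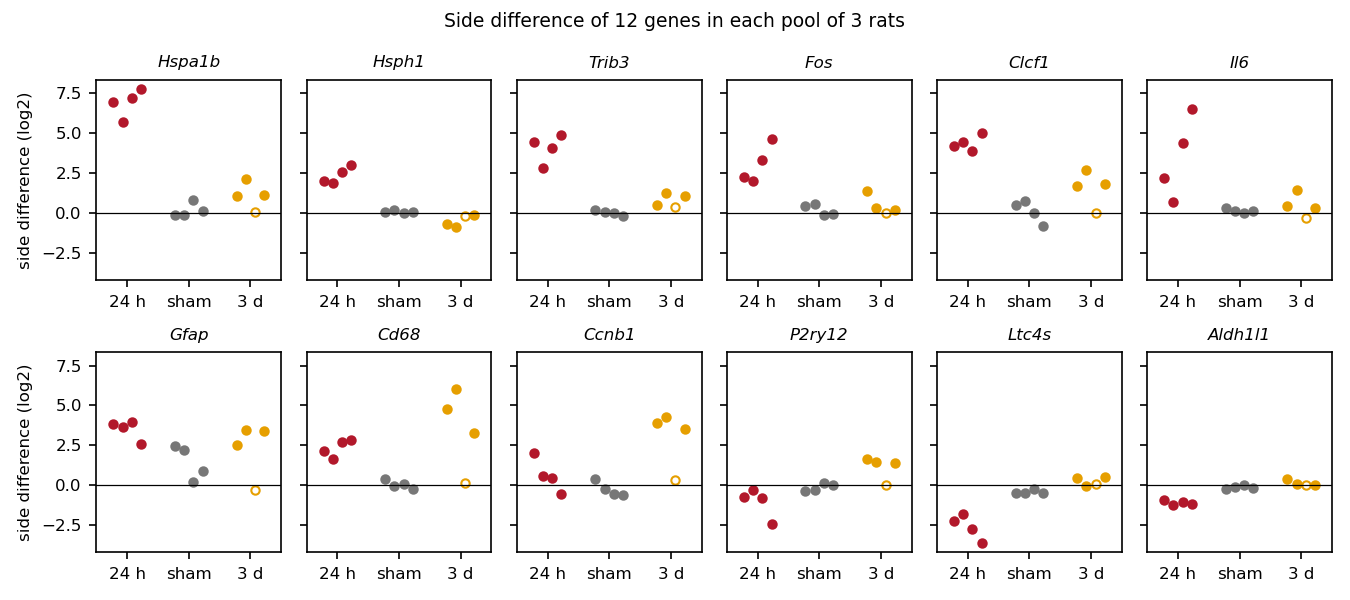
Side difference (log2) of 12 genes in each pool of 3 rats, for PI minus contralateral at 24 h (red), sham ipsilateral minus contralateral at 24 h (grey) and PI minus contralateral at 3 d (orange, with pool 11 open). Hspa1b and Hsph1 were higher in all 4 pools at 24 h than in any pool at 3 d, Ccnb1 was higher in 3 of the 4 pools at 3 d than in any pool at 24 h, and P2ry12 lay below 0 at 24 h and above it in those 3 pools.

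Few probes were called between the core of the same pools and the PI area at 24 h. Core minus PI called 59 probes (0.193%), 20 higher and 39 lower, where 5029 had an unadjusted p below 0.05, and 244 were called with the pool as a random effect. Scaled to the 75th percentile 12 were higher and 79 lower, and the count ranged from 0 to 104 when single pools were left out. Hspa1b was at -0.97 ± 0.30 in the core relative to the PI area (adjusted p = 0.12), Gfap at -0.45 ± 0.45 (adjusted p = 0.65) and Snap25 at 0.54 ± 0.21 (adjusted p = 0.2). Vcam1 was lower in the core (-0.75 ± 0.12, adjusted p = 0.019) without reaching 2-fold. A missed call here does not show that the areas are alike. The summed signal of the neuronal markers was 50368 to 68521 in the core, with a median of 61611. That was higher than in the PI area (37824 to 51047, median 43596), with overlap only at the top of the PI range. The astrocyte sum was lower in the core, at 23117 to 29488 against 30996 to 32558, without overlap.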

How the data were processed

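Gene expression was measured on 44 single-colour Agilent Whole Rat Genome arrays (11 groups of 4), each with RNA pooled from 3 rats. Per the file headers the scanner files were made with Agilent Feature Extraction 10.7.3.1, which subtracted a local background, and the deposited processed signal is an intensity on a linear scale. The deposited normalized table holds log2 values, which the authors made by raising signals to at least 1, quantile normalization and a probe filter that kept 20395 probes. The files also hold flags of 0 or 1 per spot for background and outliers. The labels name a labelling kit for small RNA while the methods name one for messenger RNA.

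From the scanner intensities, control spots and outlier spots were left out, signals were raised to at least 1, quantile normalized and put on the log2 scale, and spots of a probe were averaged (41012 probes). After the methods, a probe was kept where it met all of 3 conditions, namely signal at or above percentile 20 and signal above background, each on at least 75% of the arrays of some group, and a coefficient of variation over the arrays above 2.5% (30514 probes). Genes were named through RefSeq accessions (16815 probes) or the deposited symbol (2502), and 21695 probes had no name. limma 3.58.1 (R 4.3.3) was fitted per probe to all 44 arrays, with group and pool as fixed effects, eBayes and Benjamini-Hochberg adjustment over all kept probes. The code was tested on simulated data. Pool numbers pair samples because both areas came from the same rats. Deviations from the group means correlated at 0.12, 0.10, 0.03 and 0.20 within pools 1 to 4.

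The text names the 10 largest increases and decreases that were called, did not overlap and moved alike in all 4 pools, the 5 largest differences from sham and from 3 d in each direction, and members of 29 pathway, 11 marker and 10 family lists. The members, lists and tests were chosen with earlier results of these data known. For lower bounds, the bright group's mean was set against the dim group's mean of, per array, the higher of the dim probe and the lowest signal well above background. Promoters came from a RefSeq table (GRCr8), and their motifs were searched on both strands. Some members are counted in their lists but not reported here by name. Alternatives are given in the closing section. Precision is limited by the number of arrays.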

Additional observations from a re-analysis of the deposited data

Results flagged for a closer look

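In the 317 groups of 4 arrays that could be tested over the 167 genes named here, 22 held an array whose gap to its neighbour was large for the range of the group, where chance alone gives about 5% of groups, and 12 of these arrays came from pool 4. In the PI area, pool 4 was the lowest array for Aif1 (11.05) and P2ry13 (1.17) and the highest for Ccl2 (14.60), Gadd45a (12.32), Myc (10.58), Ptx3 (9.05) and Serpinh1 (12.53), all as log2 signals. PI pool 2 was the lowest for Calcb (7.45), Casp4 (8.52) and Tnf (2.74). On the contralateral side, pool 4 was the highest for Gfap (8.96), Kcnn4 (5.72), Myc (8.14), Ripk3 (6.66) and Tnf (3.15). Contralateral pool 1 was the lowest for Angpt2 (7.70), Dnajb1 (10.37), Hspa1a (5.62), Mmp17 (5.01), Slc16a3 (7.60) and Trib3 (5.23) and the highest for Il18 (7.77). Among 22 groups of summed cell type markers, the choroid plexus sum of 10674 in contralateral pool 4 stood apart.

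The side difference at 24 h differed from that after sham surgery for 2329 probes and from that at 3 d for 1113 probes, by limma's test of the difference itself. Against sham, the largest differences of log2 changes were those of Fosl1 (7.67), Hspa1b (6.74), Has1 (6.45), Hspa1a (6.45) and Ptx3 (5.78), and the most negative those of Defb1 (-2.67), Pla2g3 (-2.34), Hes5 (-2.34), Notum (-2.30) and Magee2 (-2.24). Against 3 d they were Hspa1b (5.82), Hspa1a (5.44), LOC689410 (5.07), Ccl20 (5.06) and LOC686038 (5.01), and Ltc4s (-2.86), Fmo4 (-2.65), P2ry13 (-2.56), Grifin (-2.46) and Cilp (-2.41). These genes were chosen for the size of that difference. Fosl1, Has1, Ptx3, Ccl20 and LOC686038 were not well above background on any contralateral array at 24 h, nor Magee2 and Fmo4 on any PI array, so their fitted differences are no bounds and their ranks are uncertain.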

How the results depend on the processing

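Counts of called probes depended on the processing, and the cause was not tested except where an alternative tests fewer features or drops the fold minimum. In the order hemispheres at 24 h, sham sides, excess over sham, hemispheres at 3 d, 24 h against 3 d, and core against PI, the main counts were 4420, 1, 2329, 1773, 1113 and 59. Normexp background correction gave 945, 0, 728, 542, 326 and 18. The slide beside the replicate block gave 678, 0, 327, 0, 247 and 0. With no fold minimum the counts were 12059, 1, 4488, 5251, 1923 and 98, and with the mean of the probes of each symbol 1965, 0, 1225, 1059, 619 and 40. A fit to the arrays of each contrast alone gave 0 for the sham sides, 0 for 3 d, 235 for the difference between the times and 0 for the core. Scaling to the 75th percentile gave 0 for the sham sides and 91 for the core (13.2% higher in place of 33.9%). It made 67.2% in place of 52.6% of the calls against sham positive, and 70.1% in place of 48.1% of those against 3 d. The authors' normalized table gave 0 for the sham sides and 92 for the core, the stricter probe filter 0 for the sham sides, and the pool as a random effect 2 and 244. Without the replicate block the counts were 4050 for the hemispheres and 692 for the difference between the times, and no other count moved by over 1.5 times. Leaving out single pools gave 2921 to 4936, 0 to 4, 875 to 2589, 807 to 3095, 517 to 1877 and 0 to 104. The lowest count for the hemispheres came without pool 4, where 62.1% of the main calls were shared.

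Of 2333 gene values under the alternatives, 2204 kept their direction and call, 121 lost the call, 3 gained it and 5 reversed. Leaving out single pools gave -0.52 to 0.53 for Arc and -0.18 to 0.53 for Egr1, both lowest without pool 4, and -0.26 to 0.13 for Vegfa, which was at 0.08 without pool 1 and at 0.079 with the slide. Normexp took the call from 9 of the 10 largest decreases, all but Hes5. Of 434 counts of gene lists of 5 or more, 363 stayed within 1.5 times. Dim probes limit the precision of the lower bounds.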
